A study of Mus musculus with 6 samples.

Results

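The nuclear genes for the subunits of the mitochondrial respiratory chain and ATP synthase were compared between leukaemia-prone mouse blood progenitors with and without LIN28B. The genes were the protein-coding entries of the deposited TPM table whose symbols follow the naming of NADH dehydrogenase, succinate dehydrogenase, cytochrome bc1, cytochrome c, cytochrome c oxidase or ATP synthase subunits. This gave 88 gene IDs of 55471 in the table, with 36 for complex I, 4 for complex II, 9 for complex III, 1 for cytochrome c, 20 for complex IV and 18 for complex V. The symbols were not chosen from measured values, and Atp5o stood under 2 of the IDs.

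The respiratory chain moves electrons from NADH (complex I) and succinate (complex II) to coenzyme Q, then through complex III, cytochrome c and complex IV to oxygen. Complexes I, III and IV pump protons as they do so, and ATP synthase (complex V) uses the gradient to make ATP. Most subunits are encoded in the nucleus and imported, while a small set is made inside the organelle from mitochondrial DNA, so that each proton-handling complex is built from products of both genomes. Several subunits of complex IV have tissue-specific paralogs that take the place of the general form in heart, lung or testis. Immature blood cells are known to rely strongly on glycolysis, and many acute myeloid leukaemias are known to depend on mitochondrial respiration.

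The L28BME group carried LIN28B together with the fusion MLL-ENL, and the ME group carried MLL-ENL alone. LIN28B binds RNA, is normally made in fetal rather than adult blood progenitors and keeps let-7 microRNAs from maturing, and MLL-ENL is a leukaemia fusion of a histone methyltransferase gene with a partner from the transcription elongation machinery. In both groups, bone marrow GMLPs, progenitors of granulocytes, monocytes and lymphocytes without lineage markers or CD150 and with Kit, Sca1 and CD48 on their surface, were cultured for 3 days with doxycycline (DOX). There were 3 libraries per group. The labels give neither the promoters that drive the alleles nor the age of the mice, and they do not say whether libraries came from separate animals, and p-values therefore reflect the spread among these 6 libraries alone, which may be technical.

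Lin28b had 11.2, 11.7 and 11.9 TPM in the L28BME libraries and was listed at 0 in all 3 ME libraries. TPM is an abundance corrected for transcript length and scaled to a fixed total per library, so the depth behind a value is not known and counting error could not be estimated. Of the sorted cells' markers, Flt3 was called higher in L28BME and Cd48, Cd34 and Ly6a (the gene of Sca1) lower, and the summed TPM of the 7 progenitor markers lay between 1173 and 1188 in L28BME and between 1215 and 1253 in ME. Of 6 neutrophil markers, 4 were called higher, with summed TPM of 536 to 563 in L28BME and 218 to 228 in ME. Of 5 megakaryocyte markers 3 were called higher, with sums of 122 to 139 TPM in L28BME and 81.6 to 85.0 TPM in ME. Of 5 monocyte or macrophage markers 4 were tested, of which Csf1r was higher and Ly6c2 and Cd14 were lower, with sums of 228 to 241 TPM in L28BME and 318 to 339 TPM in ME. Of 5 mast cell or basophil markers Cpa3 and Mcpt8 were called lower, with sums of 334 to 339 TPM in L28BME and 418 to 451 TPM in ME. Of 5 T lymphoid markers Cd3e and Cd8a were listed at 0 in all libraries and Lck alone was tested, which was called higher, with sums of 32.4 to 36.0 TPM in L28BME and 19.0 to 20.4 TPM in ME. Of 5 stroma or endothelium markers Pdgfra was listed at 0 in all libraries and Pecam1 alone was tested, which was called lower, with sums of 110 to 115 TPM in L28BME and 162 to 163 TPM in ME. The 5 erythroid markers summed to 20.4 to 32.7 TPM in L28BME and 10.5 to 18.7 TPM in ME. Of these, 3 were tested and none was called by limma, with all 3 at an unadjusted p under 0.05 and a median log2 fold change of 0.66. The 5 B lymphoid markers summed to 5.10 to 6.04 TPM in L28BME and 2.52 to 4.62 TPM in ME, and Ebf1 was called higher. Fewer cells of a type and less RNA per cell cannot be told apart in such bulk samples. The part of these marker differences in the values below was not tested.

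Across the chain, subunit RNA differed little between the groups. A gene was tested where its TPM was at least 1 in at least 3 libraries, and called at an adjusted p under 0.05 from limma with Benjamini-Hochberg adjustment over all 13348 genes tested. Of the 88 members, 82 were tested, of which 4 were called higher and 8 lower in L28BME. The 12 called members were 14.6% of those tested, and 14.9% of all genes tested were called, so the members' share was close to the background. By direction, 8.28% of all genes tested were called higher and 6.6% lower. The 3 L28BME values lay apart from the 3 ME values for 32 of the 82 members, or 39.0%, against 36.7% of all genes tested. Of those 32, L28BME was higher for 10 and lower for 22, while 19.4% of all genes tested were apart with L28BME higher and 17.4% with L28BME lower. The median log2 fold change (L28BME minus ME, on the log2(TPM + 1) scale) was -0.03 over the members and 0.00 over all genes tested.

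**Figure D1:**
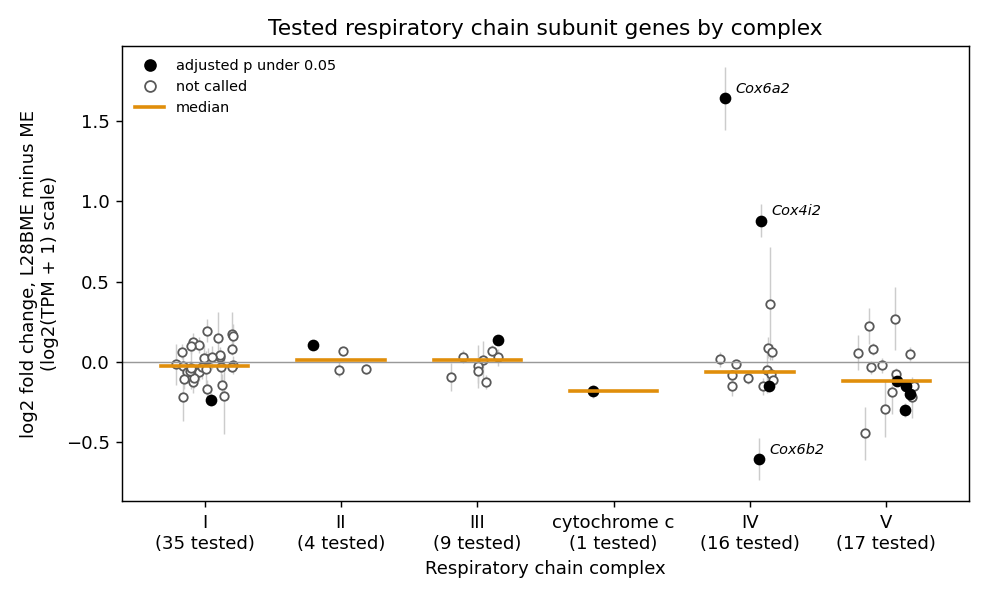
Log2 fold change (L28BME minus ME) of each tested subunit gene by complex. Points are genes with grey bars for the standard error, filled where the limma adjusted p is under 0.05. Lines are the medians, which lie between -0.18 for cytochrome c and 0.02 for complex III. The median of complex III is the value of Uqcrc1, listed at a mean of 1.08 TPM. Cox6a2 and Cox4i2 stand above all other genes.

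The members were abundant RNAs. They made up 2.23% of the TPM in L28BME and 2.29% in ME, and 76 of them had a mean of at least 50 TPM over the 6 libraries. Atp5b, the catalytic beta subunit of ATP synthase, was the most abundant with a mean of 1892 TPM, followed by Cox4i1 with 1218 TPM and Cox6b1 with 706 TPM. The median of the members' mean TPM was 159 for complex I, 278 for complex II, 206 for complex III, 366 for complex IV and 418 for complex V. Among the 76 members, the standard error of the log2 fold change had a median of 0.05 and ranged between 0.03 and 0.23, and the median coefficient of variation was 4.62% in L28BME and 4.10% in ME.

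Summed over each complex, RNA of complexes I, II and III differed between groups by less than the larger SD of the pair. Complex I summed to 5277 ± 43.2 TPM in L28BME and 5307 ± 118 TPM in ME (SD, n = 3 each). Complex II summed to 1039 ± 6.95 TPM in L28BME and 1023 ± 19.1 TPM in ME. Complex III summed to 2225 ± 30.2 TPM in L28BME and 2228 ± 9.42 TPM in ME. The sums of complex IV and complex V were lower in L28BME by more than 1 SD, at ratios of 0.977 and 0.949. Complex IV summed to 5954, 5887 and 6021 TPM in the L28BME libraries, against 5982, 6162 and 6140 TPM in the ME libraries. Complex V summed to 7751, 7564 and 7969 TPM in the L28BME libraries, against 7961, 8297 and 8276 TPM in the ME libraries. In both complexes the highest L28BME sum exceeded the lowest ME sum, so these groups overlapped.

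**Figure D2:**
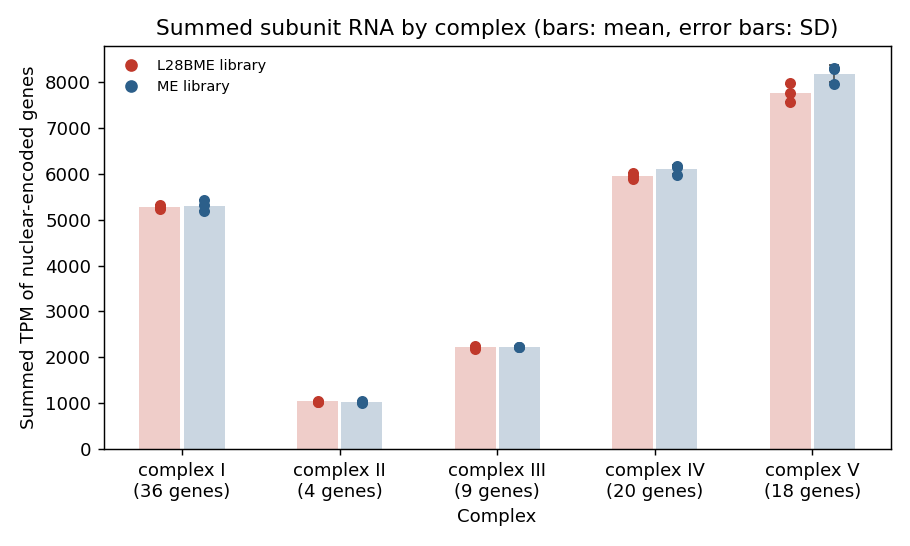
Summed TPM of the nuclear-encoded genes of each complex in each library (points), with bars for the mean and error bars for the SD of 3 libraries. The groups lie close together for complexes I to III, and for complexes IV and V the libraries of the groups overlap; for complex V the L28BME mean of 7761 TPM lies below the ME mean of 8178 TPM.

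Complex I, the NADH dehydrogenase, had 1 called member of 35 tested, or 2.86%, and a median log2 fold change of -0.02. The called gene was Ndufb1-ps (chr12:101968090-101977068, minus strand of GRCm38), whose symbol carries a pseudogene suffix although the table lists it as protein-coding, and which is the mouse gene for a small accessory subunit of the membrane arm. Ndufb1-ps had 206, 212 and 195 TPM in the L28BME libraries, against 241, 242 and 238 TPM in the ME libraries. All 3 L28BME values were lower than all 3 ME values, and the log2 fold change was -0.23 ± 0.04 (SE, limma adjusted p = 0.0128). With each library left out the adjusted p ranged from 0.0209 to 0.0507, and it was the call without ME replicate 2 that was lost. Exons of Ndufb1-ps share 147 bases with Cpsf2 on the opposite strand, which averaged 76.3 TPM, and whether strand was used in quantification is not given in the sources used here. With these gene models summed, the log2 fold change was -0.19 and the call held.

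The core of complex I, which carries electrons to coenzyme Q, did not pass the test. Of 7 core genes 6 were tested and none was called by limma, with 1 at an unadjusted p under 0.05, and their median log2 fold change was 0.06. Ndufa3, an accessory subunit of the membrane arm, had 236.5, 207.1 and 208.7 TPM in L28BME, against 243.9, 239.3 and 249.3 TPM in ME. The groups lay apart, but with a log2 fold change of -0.17 ± 0.06 the limma adjusted p was 0.108, or 0.0228 without L28BME replicate 1. The 20 genes of the membrane arm had a median log2 fold change of -0.04, and 14 of them lay below 0. In the NADH-binding module none of 10 genes was called by limma, with 1 at an unadjusted p under 0.05, and the median was 0.04.

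Complex II, which links the citric acid cycle to the chain and is the complex made from nuclear genes alone, had 1 called member of 4. Sdhb, its iron-sulfur subunit, had 197, 195 and 197 TPM in the L28BME libraries, against 181, 182 and 183 TPM in the ME libraries. The groups did not overlap, and Sdhb rose by 7.56% (log2 fold change 0.10 ± 0.03, limma adjusted p = 0.0437). The call was lost whichever library was left out, with adjusted p from 0.0951 to 0.122, and also with the GC trend removed (0.0643), with no filter on low values (0.0508), with quantile normalization (0.0504) and with no intensity trend (0.143). Sdha, the flavoprotein that oxidises succinate, averaged 375 ± 4.03 TPM in L28BME and 358 ± 4.93 TPM in ME, a log2 fold change of 0.07 (adjusted p = 0.143, or 0.0281 with quantile normalization). The membrane anchors had log2 fold changes of -0.05 for Sdhc (adjusted p = 0.568) and -0.04 for Sdhd (adjusted p = 0.396). The catalytic pair thus had positive and the anchors negative values, of which that of Sdhb passed the test.

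Complex III, which passes electrons from coenzyme Q to cytochrome c, had 1 called member of 9, and its median log2 fold change was 0.02. That median is the value of Uqcrc1, a gene listed at a mean of only 1.08 TPM. Uqcrfs1, the Rieske iron-sulfur protein, had 217, 207 and 213 TPM in the L28BME libraries, against 193, 191 and 195 TPM in the ME libraries. The groups did not overlap, and the log2 fold change was 0.14 ± 0.03 (limma adjusted p = 0.0359). The call stood without L28BME replicate 2 (adjusted p = 0.0486), while without L28BME replicate 1, L28BME replicate 3 or any ME library it lay between 0.0835 and 0.112. It was also lost with no filter on low values (0.0520) and with no intensity trend (0.101). Uqcrb, a small subunit, averaged 396 ± 14.8 TPM in L28BME and 431 ± 15.2 TPM in ME, with a log2 fold change of -0.12 (adjusted p = 0.103). Uqcrh, the hinge protein, averaged 499 ± 14.6 TPM in L28BME and 475 ± 8.34 TPM in ME, with a log2 fold change of 0.07 (adjusted p = 0.195).

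Cycs, the somatic cytochrome c that carries electrons from complex III to complex IV, had 71.8, 73.9 and 72.8 TPM in the L28BME libraries, against 79.9, 82.2 and 86.0 TPM in the ME libraries. All L28BME values were lower, and Cycs fell by 12% (log2 fold change -0.18 ± 0.04, limma adjusted p = 0.0326). The call stood without ME replicate 1 (adjusted p = 0.0484) and was lost without any other single library, at 0.0748 to 0.0992, as it was with no intensity trend (0.0621).

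Complex IV held both the largest positive and the largest negative fold changes among the 82 tested members, and these belonged to paralogs named for other tissues. Cox6a2, the heart and muscle form of subunit 6a (chr7:128205435-128206387, minus strand), had 31.6, 34.3 and 41.9 TPM in the L28BME libraries, against 12.4, 12.6 and 7.85 TPM in the ME libraries. Every L28BME value was above every ME value, and the ratio of the means was 3.28 (log2 fold change 1.64 ± 0.20, limma adjusted p = 0.00415). Cox4i2, the lung form of subunit 4 (chr2:152754173-152765037, plus strand), had 26.9, 26.4 and 22.5 TPM in the L28BME libraries, against 14.6, 13.3 and 11.9 TPM in the ME libraries. These groups too lay apart, with a ratio of means of 1.90 (log2 fold change 0.88 ± 0.10, limma adjusted p = 0.00388). Both calls held with each library left out, with adjusted p up to 0.0195 for Cox6a2 and up to 0.0200 for Cox4i2. Cox6a2 shares exonic bases with Itgad on the opposite strand, and Itgad averaged 0.252 TPM.

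The third paralog moved the other way. Cox6b2, the testis form of subunit 6b, had 7.14, 8.15 and 9.95 TPM in the L28BME libraries, against 14.2, 11.8 and 13.9 TPM in the ME libraries. The groups did not overlap, and the log2 fold change was -0.61 ± 0.13 (limma adjusted p = 0.0317). The call stood without L28BME replicate 3 (adjusted p = 0.0253) and was lost without any of the other libraries, at 0.0531 to 0.0976, and with no filter on low values (0.0625). Cox7a1, the heart form of subunit 7a, had 6.24, 2.22 and 5.43 TPM in L28BME, against 2.06, 3.94 and 3.64 TPM in ME, with overlapping groups and an adjusted p of 0.545. Cox8b, Cox8c, Cox7b2 and Ndufa4l2, the paralogs of subunits 8 and 7b and of Ndufa4, were listed at 0 in all libraries.

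The general forms were far more abundant and did not pass the test. Cox4i1 averaged 1243 ± 60.3 TPM in L28BME and 1192 ± 54.4 TPM in ME (SD, n = 3 each), with a log2 fold change of 0.06 (limma adjusted p = 0.474). Cox6a1 averaged 479 ± 19.6 TPM in L28BME and 474 ± 22.4 TPM in ME, with a log2 fold change of 0.02 (adjusted p = 0.857). Cox6b1 averaged 702 ± 10.2 TPM in L28BME and 710 ± 16.1 TPM in ME, with a log2 fold change of -0.02 (adjusted p = 0.761). The 8 tissue paralogs together summed to 74.2 ± 4.86 TPM in L28BME and 40.7 ± 3.08 TPM in ME, beside 5880 ± 63.0 TPM in L28BME and 6054 ± 100 TPM in ME for the 12 other genes of the complex. The paralogs thus remained a small share of complex IV RNA in both groups.

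**Figure D3:**
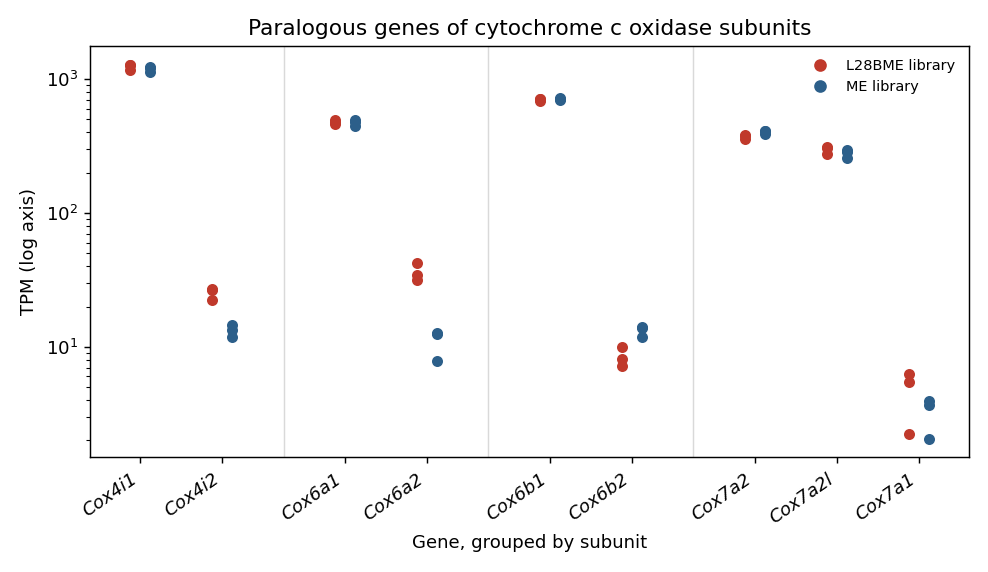
TPM of the paralogous genes of cytochrome c oxidase subunits 4, 6a, 6b and 7a in each library, on a log axis. Cox4i2 and Cox6a2 lie higher and Cox6b2 lower in L28BME than in ME, each far below Cox4i1, Cox6a1 and Cox6b1, whose libraries overlap between groups.

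Among the 12 other genes of complex IV, 9 had a log2 fold change below 0, with a median of -0.08, and 1 was called. The groups lay apart for 7 of the 12, with L28BME lower in 7 and higher in 0. Of all genes tested, 17.4% lay apart with L28BME lower. At an unadjusted limma p under 0.05 there were 5 of the 12. Cox5a, a subunit on the matrix side, had 531, 492 and 507 TPM in the L28BME libraries, against 564, 579 and 557 TPM in the ME libraries. The groups did not overlap, and Cox5a fell by 10% (log2 fold change -0.15 ± 0.04, limma adjusted p = 0.0420). The adjusted p was 0.0393 without L28BME replicate 1 and between 0.0860 and 0.126 without any other library, and it was 0.0792 with no filter on low values and 0.106 with no intensity trend. The remaining paralog pairs did not pass the test: the log2 fold change was -0.11 for Cox7a2 (adjusted p = 0.119), 0.09 for Cox7a2l (0.422), -0.08 for Cox7b (0.174) and -0.10 for Cox8a (0.122). Ndufa4, named for complex I but found in complex IV, averaged 326 TPM in L28BME and 361 TPM in ME (log2 fold change -0.15, adjusted p = 0.178).

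ATP synthase had 4 called members of 17 tested, each lower in L28BME, which is 23.5% against the 6.6% of all genes tested that were called lower. Its median log2 fold change was -0.12, and 12 of the 17 genes lay below 0. Atp5e, the epsilon subunit of the central stalk (chr2:174461072-174464105, minus strand), had 327, 298 and 317 TPM in the L28BME libraries, against 380, 379 and 401 TPM in the ME libraries. Every L28BME value was lower, and Atp5e fell by 18.7% (log2 fold change -0.30 ± 0.04, limma adjusted p = 0.00938), a call that held with each library left out, at 0.0209 to 0.0344. Atp5k, subunit e of the membrane part, had 415, 390 and 414 TPM in the L28BME libraries, against 466, 471 and 460 TPM in the ME libraries. The groups lay apart and Atp5k fell by 12.8% (log2 fold change -0.20 ± 0.03, limma adjusted p = 0.0142), with an adjusted p of 0.0565 without ME replicate 2 and 0.0300 to 0.0483 without any other library. With a block for the replicate number the adjusted p of Atp5k was 0.0615.

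The other called genes of ATP synthase changed less. Atp5h, subunit d of the peripheral stalk, had 593, 573 and 572 TPM in the L28BME libraries, against 625, 628 and 634 TPM in the ME libraries. Atp5l, subunit g of the membrane part, had 256, 241 and 256 TPM in the L28BME libraries, against 277, 275 and 280 TPM in the ME libraries. In neither gene did the groups overlap. The log2 fold change was -0.12 ± 0.03 for Atp5h (limma adjusted p = 0.0308) and -0.15 ± 0.03 for Atp5l (0.0374). The call of Atp5h was kept without L28BME replicate 1 (0.0466) and lost without any other library (0.0720 to 0.0976), and that of Atp5l was lost whichever library was left out (0.0643 to 0.111). After quantile normalization the log2 fold change of Atp5h was -0.06 (adjusted p = 0.222), the largest of its alternatives, whose adjusted p began at 0.0225. Neither call held with no filter on low values (0.0633 for Atp5h and 0.0603 for Atp5l) or with no intensity trend (0.124 for Atp5h and 0.0994 for Atp5l), and that of Atp5l was lost after quantile normalization (0.0673).

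**Figure D4:**
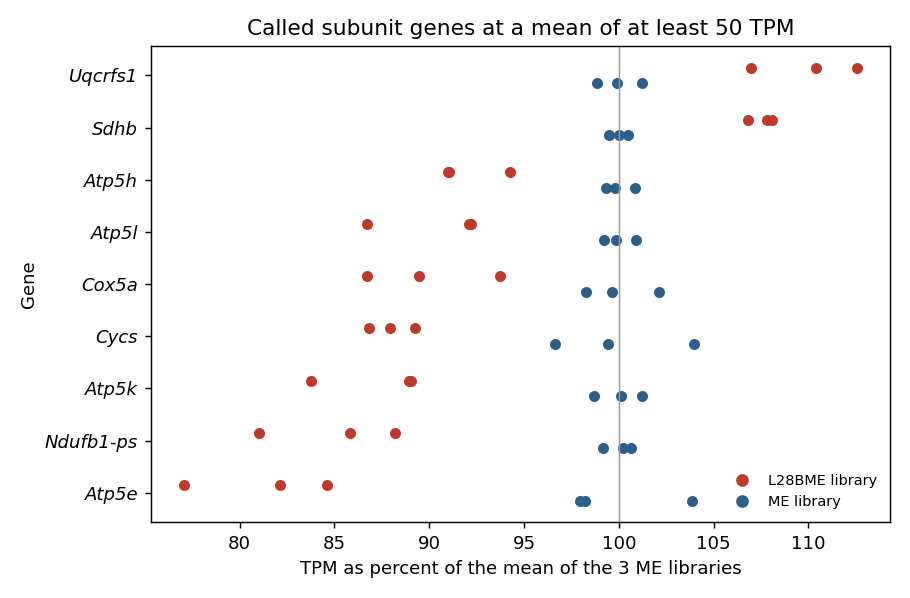
The 9 called subunit genes with a mean of at least 50 TPM, each library shown as a percent of the mean of the 3 ME libraries. The L28BME libraries lie above all ME libraries for Uqcrfs1 and Sdhb and below them for the other 7 genes, with Atp5e farthest below.

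The head and central stalk of ATP synthase had a median closer to 0, although its genes were spread widely. Over these 5 genes the median log2 fold change was -0.02, with a range from -0.30 for Atp5e to 0.23 for Atp5d. Atp5d, detailed after its values were seen, had 255, 257 and 271 TPM in L28BME, against 269, 202 and 205 TPM in ME. Its groups overlapped and its limma adjusted p was 0.247. Among the fits with a library left out, 1 called it higher in L28BME (adjusted p = 0.0115). Atp5a1 of the head, at -0.19, averaged only 3.49 TPM. The summed TPM of the 5 genes was 3029 ± 150 in L28BME and 3069 ± 71.1 in ME. Over the 12 tested genes outside the head and central stalk, the median was -0.13 and 3 were called lower. All 13 genes outside it summed to 4693.5, 4696.6 and 4807.5 TPM in the L28BME libraries. In the ME libraries they summed to 4944, 5256.8 and 5125.8 TPM, so these sums did not overlap between groups. The difference between the parts of the enzyme was not tested. The 3 genes for subunit c, whose ring turns in the membrane, encode the same mature protein, and none was called by limma, with 1 at an unadjusted p under 0.05. Atp5g3, the most abundant, had 561, 537 and 540 TPM in L28BME, against 578, 607 and 630 TPM in ME. These groups lay apart, with a log2 fold change of -0.15 (adjusted p = 0.0585), which was 0.0456 without ME replicate 1, 0.0445 with the GC trend removed and 0.0482 with median scaling. Atp5g2 had a log2 fold change of -0.07 (adjusted p = 0.224), and Atp5g1 had 202, 185 and 314 TPM in L28BME, against 173, 201 and 192 TPM in ME, with 1 high library and an adjusted p of 0.419. Atp5mpl, the small proteolipid of the membrane part, was chosen after its values were seen: it had 420, 269 and 394 TPM in L28BME, against 478, 486 and 484 TPM in ME. Every L28BME value was lower, but with L28BME replicate 2 far below the others the adjusted p was 0.133 at a log2 fold change of -0.44, and without that library it was 0.0237 at -0.25.

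The start sites of Atp5k and Atp5h are shown because these called genes carry matches to motifs of factors known to control respiratory chain genes. NRF1 was searched as GCGCA followed directly by TGCGC, and in a relaxed form with any base at the fifth position; GABPA, an ETS factor, as CCGGAAGT; and YY1 as AAGATGGCG, each on both strands. The exact NRF1 match is also a relaxed one. Windows run from 250 bases before to 50 after the RefSeq gene start of GRCm38.p6, on the gene's strand, with matches in capitals.
Atp5k (chr5:108434350-108434649, minus strand): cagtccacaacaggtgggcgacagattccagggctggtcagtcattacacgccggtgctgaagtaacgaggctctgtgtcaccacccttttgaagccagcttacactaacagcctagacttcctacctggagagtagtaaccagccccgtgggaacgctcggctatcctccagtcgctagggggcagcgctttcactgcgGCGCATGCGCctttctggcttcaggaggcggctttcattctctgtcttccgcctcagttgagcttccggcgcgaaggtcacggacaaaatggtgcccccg
Atp5h (chr11:115419870-115420169, minus strand): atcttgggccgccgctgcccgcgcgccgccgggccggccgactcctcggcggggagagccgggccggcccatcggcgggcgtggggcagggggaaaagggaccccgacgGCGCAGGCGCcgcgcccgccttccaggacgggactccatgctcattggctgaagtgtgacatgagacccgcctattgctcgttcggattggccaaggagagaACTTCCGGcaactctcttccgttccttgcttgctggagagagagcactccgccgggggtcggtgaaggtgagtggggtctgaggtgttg
The capitals in Atp5k are the exact NRF1 letters, at -50. Those in Atp5h are a relaxed NRF1 match at -141 and an ETS match at -39, both of which read on the opposite strand. The windows of the called genes Cox5a, Sdhb, Atp5e, Uqcrfs1, Atp5l, Cox6b2 and Cycs held no match to any of these motifs. The called genes Cox4i2, Cox6a2 and Ndufb1-ps had no window and were not searched.

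Of the 88 members, 69 had such a window. The relaxed NRF1 letters stood in 17 of them, or 24.6%, against 7.17% of 17492 protein-coding gene windows, and the exact letters in 5, or 7.25%, against 1.47%. YY1 letters stood in 7, or 10.1%, against 2.14%, and ETS letters in 5, or 7.25%, against 5.69%. The YY1 matches are shown because 6 of the 7 began 23 to 36 bases after the start. The searched YY1 letters include ATG, the letters of a start codon. Whether these matches lie at translation starts was not tested, so their share and position cannot be read as promoter sites alone. Complex I held 5 of the 7, in 31 of the 69 windows, and complex V held 2, in 15 windows. All 7 lay on the gene's own strand, with capitals for the match.
Ndufa9: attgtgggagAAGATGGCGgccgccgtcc
Ndufs4: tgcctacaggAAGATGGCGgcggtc
Ndufs6: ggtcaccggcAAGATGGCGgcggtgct
Ndufs7: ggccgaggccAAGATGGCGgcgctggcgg
Ndufc1: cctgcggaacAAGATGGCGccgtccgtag
Atp5j2: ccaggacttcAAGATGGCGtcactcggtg
Atp5j: aagtgtaggaAAGATGGCGgagtcttagc
The exact NRF1 matches other than that of Atp5k spanned complexes I, III, IV and V, and are shown with the NRF1 letters in capitals.
Ndufa11: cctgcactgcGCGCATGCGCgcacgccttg
Uqcrc1: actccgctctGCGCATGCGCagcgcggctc
Cox6a1: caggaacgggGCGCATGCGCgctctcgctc
Atp5g2: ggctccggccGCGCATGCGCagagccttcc
Of these 12 genes, Atp5k was called and the other 11 were not. A match describes these letters in this window and is not a measured site.

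Each complex other than complex II and IV had a core gene that was listed near 0 beside abundant partners. Ndufs3, a core subunit of complex I, had 0.240, 0 and 0.301 TPM in L28BME, against 0, 0.422 and 0 TPM in ME, and was not tested. Uqcrc1, core protein 1 of complex III, had 1.16, 1.11 and 0.997 TPM in L28BME, against 1.19, 0.915 and 1.10 TPM in ME. Atp5a1, the alpha subunit that alternates with Atp5b in the catalytic head, had 3.74, 2.80 and 3.05 TPM in L28BME, against 3.82, 4.35 and 3.20 TPM in ME. Partners in the same complexes, such as Uqcrc2 with a mean of 310 TPM and Atp5b with 1892 TPM, were present in the same libraries. These low values can therefore not be read as levels of the genes, and no cause was tested. With the second Atp5o ID, which overlaps the first and was listed at 0, they leave the sums of complexes I, III and V short of these genes in both groups. Uqcrc1 and Atp5a1 passed the filter, so they also count among the tested members and in the medians of complexes III and V.

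Of 13 subunit genes encoded in mitochondrial DNA, 12 were tested and 1 was called, higher in L28BME, and their median log2 fold change was 0.12. mt-Co1, the catalytic subunit of complex IV, averaged 13994 ± 393 TPM in L28BME and 12474 ± 385 TPM in ME (log2 fold change 0.17, limma adjusted p = 0.0256). Its call was lost without L28BME replicate 1, L28BME replicate 2, ME replicate 1 or ME replicate 3, at up to 0.0769, and with no filter on low values (0.213) or no intensity trend (0.0829). Quantile normalization gave mt-Co1 a log2 fold change of 0.00. That method gives genes of equal rank the same value in every library, so it can erase a difference in the most abundant RNAs. mt-Nd1, mt-Nd5 and mt-Nd2 of complex I had log2 fold changes of 0.10, 0.12 and 0.12, with adjusted p of 0.0721, 0.0891 and 0.103. Each passed under 1 alternative, mt-Nd1 with the length trend removed (0.0388), mt-Nd5 with the GC trend removed (0.0379) and mt-Nd2 with quantile normalization (0.0355). Mitochondrially encoded RNA took 4.49% to 4.85% of the TPM in L28BME and 4.12% to 4.35% in ME. Only 7 of these 13 genes were at 300 TPM or more, and the other 6, among them mt-Co2, mt-Co3 and mt-Atp6, had means from 0.0205 to 16.2 TPM and share the limit of the 3 core genes above. Since TPM sum to a fixed total, a larger mitochondrial share lowers every nuclear gene's TPM. Without these genes in the scaling, the log2 fold change of Cox5a was -0.1465, against -0.1524 with them. Its limma adjusted p was then 0.0509, within a range of 0.0326 to 0.106 over all settings that kept the 6 libraries. The other 11 calls held without these genes.

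Genes that build or feed the chain, pooled over 11 lists, were called at 15.7% of 134 genes, against 14.9% of all genes tested. The lists were uneven. In glycolysis 5 of 20 genes were called higher and 2 lower, and of 8 tested biogenesis regulators 3 were called higher. In contrast, 1 of 21 complex IV assembly factors, 1 of 14 citric acid cycle enzymes and 1 of 13 coenzyme Q synthesis genes were called. Differences between lists were not tested. Of 18 complex I assembly factors, 1 was called higher and 2 lower. Ndufaf2, which helps to assemble complex I, had 50.2, 49.2 and 45.9 TPM in L28BME, against 70.4, 61.3 and 71.9 TPM in ME. These groups lay apart, and the log2 fold change was -0.48 ± 0.07 (limma adjusted p = 0.00997, held with each library left out). Foxred1 averaged 58.6 TPM in L28BME and 69.4 TPM in ME (adjusted p = 0.0197), and Timmdc1 33.4 TPM in L28BME and 27.5 TPM in ME (0.0492). Acad9 did not pass the test, with 70.3 TPM in L28BME and 55.6 TPM in ME (0.105, or 0.0445 without ME replicate 1). Foxred1 lost its call without L28BME replicate 1, L28BME replicate 3, ME replicate 1 or ME replicate 2 (up to 0.0653) and Timmdc1 without any single library (up to 0.129). Timmdc1 was also above the threshold with the GC trend removed, median scaling, quantile normalization, no filter on low values, no intensity trend or robust variance, at 0.0501 to 0.0778. Ndufab1, the acyl carrier subunit of complex I that the symbol rule does not take in, averaged 68.5 ± 3.45 TPM in L28BME and 85.0 ± 13.1 TPM in ME (adjusted p = 0.157, or 0.0165 without ME replicate 1).

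None of 4 for complex II and none of 6 for complex III was called by limma, with 1 and 0 at an unadjusted p under 0.05. Of 21 for complex IV 1 was lower, Sco2, a copper chaperone, with 21.9 ± 1.02 TPM in L28BME and 27.7 ± 1.72 TPM in ME (limma adjusted p = 0.0246). Of 6 for complex V 1 was lower, Fmc1, with 52.8 ± 3.89 TPM in L28BME and 68.2 ± 4.93 TPM in ME (0.0275). Sco2 lost its call without L28BME replicate 1, L28BME replicate 2, ME replicate 1 or ME replicate 3 (up to 0.0795), and with overlapping gene models summed its log2 fold change was 0.05 (0.446). Fmc1 lost its call without L28BME replicate 2, L28BME replicate 3, ME replicate 2 or ME replicate 3 (up to 0.0867). Atpif1, the inhibitor of ATP synthase, averaged 710 ± 15.8 TPM in L28BME and 743 ± 4.31 TPM in ME (adjusted p = 0.151).

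Genes that act on mitochondrial DNA or on transcription of the chain moved in both directions. Of 13 genes of mitochondrial DNA expression, 2 were called higher and 1 lower. Mterf3, a negative regulator of mitochondrial transcription, had 31.3, 31.1 and 34.6 TPM in L28BME, against 43.8, 43.6 and 46.7 TPM in ME. The groups lay apart, with a log2 fold change of -0.46 ± 0.06 (limma adjusted p = 0.00568, held with each library left out). Tfam, which packages and transcribes mitochondrial DNA, averaged 49.1 ± 1.83 TPM in L28BME and 42.1 ± 0.99 TPM in ME (0.0283), and Tfb1m averaged 28.4 ± 2.47 TPM in L28BME and 20.3 ± 1.49 TPM in ME (0.0188). Tfam lost its call without any single library (up to 0.0883) and Tfb1m without L28BME replicate 1, L28BME replicate 3, ME replicate 1 or ME replicate 2 (up to 0.0665).

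Of 8 tested regulators of mitochondrial biogenesis, 3 were called higher and none lower. Gabpa averaged 60.1 TPM in L28BME and 53.8 TPM in ME (limma adjusted p = 0.0484), Yy1 averaged 85.2 TPM in L28BME and 75.8 TPM in ME (0.0198), and Esrra averaged 29.6 TPM in L28BME and 24.0 TPM in ME (0.0303). Gabpa and Yy1 lost the call without any single library (up to 0.135 and 0.0717), and Esrra without any but ME replicate 3 (up to 0.0909). Gabpa shares 397 exonic bases with Atp5j on the opposite strand, and with overlapping gene models summed its log2 fold change turned to -0.23 (adjusted p = 0.374). It also lost its call with the length trend removed, median scaling, quantile normalization, no filter on low values or no intensity trend (0.0572 to 0.0837). Esrra had a log2 fold change of 0.04 with overlapping gene models summed (0.593). Pprc1 averaged 42.5 ± 5.03 TPM in L28BME and 66.1 ± 12.9 TPM in ME (0.0576, or 0.0198 without ME replicate 1), and Nrf1 had an adjusted p of 0.551.

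Of 14 citric acid cycle enzymes, 1 was called. Mdh2, the mitochondrial malate dehydrogenase, averaged 588 ± 3.57 TPM in L28BME and 644 ± 13.7 TPM in ME (log2 fold change -0.13, limma adjusted p = 0.0232), and lost its call without any library but ME replicate 2 (up to 0.0750), as with no intensity trend (0.0994) or quantile normalization (0.141). Idh3g and Idh3b, subunits of 1 enzyme, had log2 fold changes of -0.20 and 0.14 (adjusted p = 0.0998 each), and Idh3g had 0.0369 without ME replicate 1. Of 13 genes of coenzyme Q synthesis, 1 was lower, Pdss2, with 11.4 TPM in L28BME and 14.2 TPM in ME (0.0329), a call lost without any single library (up to 0.104) and with no filter on low values (0.0605).

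Of 20 genes of glycolysis, 5 were called higher and 2 lower. Hk3, a hexokinase of myeloid cells, had 138, 119 and 125 TPM in L28BME, against 205, 210 and 217 TPM in ME. The groups lay apart, with a log2 fold change of -0.72 ± 0.06 (limma adjusted p = 0.00136, held with each library left out). Slc2a1, a glucose transporter, averaged 46.9 TPM in L28BME and 36.6 TPM in ME (0.0214), Pgk1 averaged 945 TPM in L28BME and 863 TPM in ME (0.0226), and Hk1 averaged 148 TPM in L28BME and 164 TPM in ME (0.0307). The other called genes, named after their values were seen, were Ldha, Pfkm and Eno1, with log2 fold changes of 0.18, 0.21 and 0.12. Slc2a1 lost its call without L28BME replicate 2, L28BME replicate 3, ME replicate 2 or ME replicate 3 (up to 0.0690) and Pgk1 without any library but L28BME replicate 3 (up to 0.0758). Hk1, Ldha, Pfkm and Eno1 lost theirs without any single library (up to 0.118). With no intensity trend Pgk1 (0.102), Hk1 (0.0817), Ldha (0.0875), Pfkm (0.0543) and Eno1 (0.142) lost the call, and with no filter on low values Pgk1 (0.0582), Ldha (0.0869), Pfkm (0.0501) and Eno1 (0.107) did. Quantile normalization ended the calls of Pfkm (0.0532) and Eno1 (0.116), and summed overlapping gene models those of Pfkm (0.184) and Eno1 (0.0510). Eno1 lost its call with median scaling (0.0593) and with the length trend removed (0.0924) too. The glycolytic genes summed to 8686 ± 125 TPM in L28BME and 8527 ± 88.0 TPM in ME.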

How the data were processed

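Per the labels' protocols, RNA was extracted with a Norgen single-cell kit and made into 6 libraries with TruSeq Stranded mRNA. The submitters' processing notes list StringTie, HISAT2, bcl2fastq and DESeq2 and the build GRCm38. Tool versions, and whether strand was used, were not given in the sources used here. TPM per gene and library were computed by the authors before they were deposited, and the percent GC of each gene is an annotation value in the deposited table.

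Members and lists were chosen with earlier results of these data known, and the lists of the closing part were added later. Genes were analysed on the log2(TPM + 1) scale where they were at 1 TPM or more in at least 3 libraries, with limma 3.58.1 in R 4.3.3 (intensity trend, two-sided, Benjamini-Hochberg over 13348 genes), and the procedure was tested on simulated data. TPM are not counts, so no count model was used and depth is unknown. Sums per complex include untested members. Named genes were called members, or the 3 of smallest p in a complex with fewer than 3, complex II, paralog sets, and up to 4 genes of smallest p per list; others are said to be chosen after their values were seen or are named for their abundance, their near-0 values or their promoters. A gene that the rule selects is not reported here. Exon overlaps came from GENCODE M21 and promoters from RefSeq for GRCm38.p6. Alternatives were other pseudocounts, filters, scalings, limma options, removed GC or length trends, summed overlapping genes, a replicate term and each library left out. Python 3.11.15, pandas 2.3.3, numpy 2.4.6 and matplotlib 3.10.9 were used.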

Additional observations from a re-analysis of the deposited data

How the results depend on the processing

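For 75 named genes, over the alternatives that kept all 6 libraries, 882 results stayed on the same side of the threshold, 80 lost the call and 6 gained it, and with each library left out 298 stayed, 145 lost it and 7 gained it. Atp5d is not among these 75. With overlapping gene models summed 2 reversed, Gabpa to a log2 fold change of -0.23 and Sco2 to 0.05, since each value then holds another gene's RNA. Members called higher were 2 with no filter on low values, 2 with no intensity trend and 2 at an adjusted p under 0.01, and members called lower were 4, 4 and 1. Complex I had 0 calls at an adjusted p under 0.01. Complex II had 0 with the GC trend removed, with no filter, with no intensity trend and at an adjusted p under 0.01, and complex III had 0 in the last 3 of these. Complex IV had 2 with no filter and at an adjusted p under 0.01. Complex V had 2 with no filter, with no intensity trend and with quantile normalization, and 1 at an adjusted p under 0.01. Pathway genes called higher were 5 with no filter, 5 with no intensity trend and 0 at an adjusted p under 0.01, and those called lower were 3 at that threshold.

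The median log2 fold change of complex I was 0.01 with the length trend removed, that of complex II 0.05 and that of complex V -0.06 with quantile normalization. That of complex III was 0.00 with the length trend removed, a minimum of 5 TPM or a pseudocount of 5, 0.03 with a pseudocount of 0.1 and -0.02 with quantile normalization. The minimum of 5 TPM leaves Uqcrc1 out of complex III. The log2 ratio of the summed TPM of complex IV was 0.00 with overlapping gene models summed, a sum that then includes other genes, such as Shmt2, which overlaps Ndufa4l2. The cause was not tested for the other moves.

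With each library left out, which leaves 5, members called higher ranged from 2 to 3 and members called lower from 1 to 6. Calls ranged from 0 to 2 in complex I, from 0 to 0 in complex II, from 0 to 1 in complex III, from 2 to 3 in complex IV and from 1 to 4 in complex V. Pathway genes called higher ranged from 1 to 4 and called lower from 4 to 6. The medians ranged from -0.03 to 0.01 in complex I, from -0.04 to 0.05 in complex III and from -0.07 to -0.03 in complex IV.

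The labels do not say whether equal replicate numbers share an animal or a day. Deviations of equal numbers from the group means correlated at -0.03, -0.07 and -0.05, and not every library correlated best with its own number. With 3 libraries per group these correlations cannot show that the samples were unpaired. With a replicate block, 2 members were called higher and 2 lower, with 0 calls in complex II, 0 in complex III, 2 in complex IV and 1 in complex V, and pathway genes called were 2 higher and 4 lower. The called members that kept the call with this block were Cox4i2, Cox6a2, Atp5e and Ndufb1-ps. All other called members lost it, at limma adjusted p from 0.0615 for Atp5k to 0.1175 for Sdhb.

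Depth is unknown, so low values such as those of Cox7a1 have no counting interval. Exons of 76 members at 50 TPM or more had a median length of 1631 bases, against 4084 bases in 3774 protein-coding genes of that level. Across these genes, which are not independent replicates, Spearman's rho of log2 fold change with length was 0.18 in the members and 0.12 in the larger set, and with GC content 0.21 and -0.02. Pseudogenes that match the symbols, 15 in all, reached a mean of at most 32.5 TPM, and reads shared with them cannot be told apart from those of their parents.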

Other observations

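Genes around the chain that the comparison above does not include were counted in lists added after the others, from the same limma fit. The ADP/ATP and phosphate carriers and porins move nucleotides and phosphate between mitochondria and cytosol, and of 7 tested 1 was called higher and 1 lower. Slc25a5, the ADP/ATP carrier of growing cells, had 1341, 1355 and 1368 TPM in the L28BME libraries, against 1542, 1565 and 1579 TPM in the ME libraries. The groups lay apart and the log2 fold change was -0.21 ± 0.02 (SE, limma adjusted p = 0.00317, with 0.0122 to 0.0186 when each library was left out). Slc25a4, its heart and muscle paralog, averaged 139 ± 0.515 TPM in L28BME and 137 ± 2.39 TPM in ME (SD, n = 3 each; limma adjusted p = 0.630). Vdac1, the main porin of the outer membrane, averaged 359 ± 2.20 TPM in L28BME and 322 ± 6.73 TPM in ME (log2 fold change 0.16, limma adjusted p = 0.0150), and its call was lost without L28BME replicate 1 or ME replicate 2, at up to 0.0584, and with no intensity trend (0.0627). Ucp2, an uncoupling protein relative, averaged 225 ± 14.2 TPM in L28BME and 201 ± 8.92 TPM in ME (limma adjusted p = 0.117).

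Enzymes that pass electrons to coenzyme Q without complex I or II had 2 of 7 genes called, each lower. Etfb, a subunit of the electron carrier of fatty acid oxidation, averaged 360 ± 20.4 TPM in L28BME and 430 ± 22 TPM in ME (SD, n = 3 each; log2 fold change -0.26, limma adjusted p = 0.0317), and its partner Etfa averaged 174 ± 6.03 TPM in L28BME and 179 ± 2.87 TPM in ME (limma adjusted p = 0.509). Sqor, which oxidises sulfide, averaged 12.3 ± 1.43 TPM in L28BME and 16.9 ± 0.566 TPM in ME (limma adjusted p = 0.0277). The call of Etfb was lost without any single library (up to 0.0829) and that of Sqor without any but L28BME replicate 3 (up to 0.0840). With no filter on low values neither held (0.0599 for Etfb and 0.0519 for Sqor), and Etfb was at 0.0603 with no intensity trend. Of 11 genes of the cristae organising system, 7 of peroxide and superoxide defence and 18 of protein import, limma called 0, with 0, 0 and 2 at an unadjusted p under 0.05.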
